A study of Mus musculus with 5 samples.

Results

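The genes described here encode the nuclear subunits of oxidative phosphorylation, the 5 protein complexes of the inner mitochondrial membrane that pass electrons to oxygen and make ATP. Members were chosen by symbol: every gene whose symbol starts with Ndufa, Ndufb, Ndufc, Ndufs, Ndufv, Uqcr, Cox4i, Cox5, Cox6, Cox7, Cox8 or Atp5, and Sdha, Sdhb, Sdhc, Sdhd and Cyc1, without the muscle isoforms Cox7a1 and Cox8b. This gave 83 of the 12393 genes on the arrays. The rule names symbols and no measured value, but it was written with earlier results of these data known. The probe set with the highest mean intensity stood for each gene. Of the members, 80 were measured, which means that at least 1 pool exceeded the noise floor, and 78 exceeded it in all 5 pools.

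Whole mouse lung was profiled on 5 oligonucleotide arrays, 1 for each condition, with pooled RNA. The induced pool was from SM22-tet-BMPR2delx4+ mice given doxycycline (title: 8 weeks), with a right ventricular pressure of 50 ± 8 mmHg, and the uninduced pool from SM22-tet-BMPR2delx4+ mice without doxycycline (8 weeks, 30 ± 3 mmHg). The SM22-rtTA pool carried the doxycycline-dependent activator alone and received doxycycline (8 weeks, 30 ± 3 mmHg). The wild-type pool was from fvb/n mice 8 weeks old (30 ± 3 mmHg) and the hypoxic pool from fvb/n mice 8 weeks old after 4 weeks of hypoxia (50 ± 8 mmHg). The titles of the 3 transgenic pools do not say whether 8 weeks is age or treatment, the labels give no strain for them, and they state neither how many mice a pool holds nor which error follows each pressure. The SM22 promoter directs these transgenes to smooth muscle, and BMPR2delx4+ is a mutant BMPR2 receptor that blocks the normal one. There are no replicate arrays, so no test was run, and the number of arrays limits the precision. In whole lung, fewer cells of a type and less RNA per cell cannot be told apart.

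Complex I takes electrons from NADH, complex II from succinate, complex III passes them to cytochrome c, complex IV to oxygen, and complex V uses the resulting proton gradient to make ATP. A few core subunits carry the redox centres or the catalytic sites; the others are accessory subunits that hold the complex together. Most are made in all cells, but some subunits of complex IV have a second gene that is used in muscle, lung or testis, and tissues with many mitochondria, such as heart, kidney tubule and brown fat, hold more of the whole set.

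By complex, 34 of 34 members of complex I were measured, 4 of 4 of complex II, 9 of 9 of complex III, 13 of 14 of complex IV and 17 of 17 of complex V, and 3 of 5 complex I assembly factors, whose symbols start with Ndufaf. Cox7c, Ndufaf1 and Ndufaf5 were at or below the floor in every pool. Lung identity was plain in every pool: of 11 measured alveolar type 2 markers 10 or 11 were above the floor in each, and all 12 endothelial markers were. Values over the 5 pools are scaled intensities, given below in the order uninduced, SM22-rtTA, wild type, induced and hypoxia. The floor is an intensity of 276.2, intensities of different genes are not compared, since probe sets differ in brightness, and ratios are log2 differences between pools.

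Most members shared the first 2 places in the order of pools, and not the full order: the commonest full order held for 24 of 80. Wild type was the highest pool for 70 of the 80 measured members, against 24.9% of all measured genes, and 69 had wild type first and the induced pool second, against 6.38% of all measured genes. The exceptions were concentrated in complex IV: wild type was highest for 8 of 13 members there, against 30 of 34 in complex I, 4 of 4 in complex II, 9 of 9 in complex III and 17 of 17 in complex V. These counts depend on the scaling, since wild type was highest for 59 of 80 members with values as deposited and for 60 after quantile normalization. The share of all measured genes highest in wild type was counted at the main scaling only. Without the wild-type pool, the induced pool was highest of the remaining 4 for 75 of the 80 members, against 26.2% of all measured genes. Without the induced pool, wild type was highest for 74, against 27.4%. The lowest pool was hypoxia for 36 members (14.9% of all measured genes without ties), SM22-rtTA for 21 (16.0%) and the uninduced pool for 19 (9.62%). As deposited, hypoxia was the lowest pool for 60 members, 28 of them in complex I. The share of all measured genes was not counted at that scaling, so this count has no background beside it. There the median of all measured genes in hypoxia against the 2 transgenic normal-pressure pools was -0.12.

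**Figure D1:**
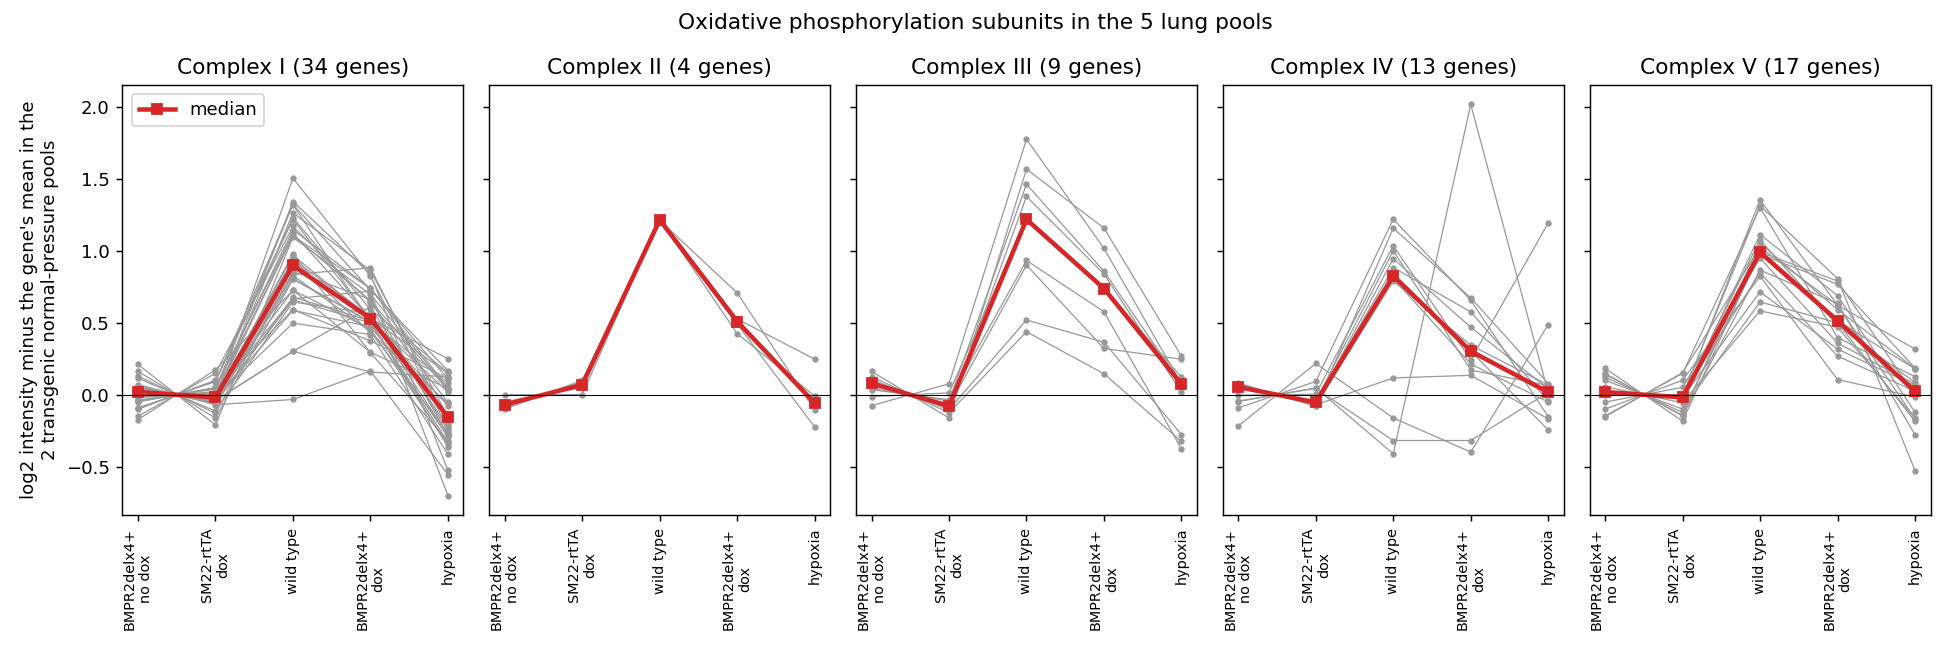
Each grey line is 1 measured member, plotted as its log2 intensity in the 5 pools minus its own mean in the 2 transgenic normal-pressure pools; red squares are the median of the complex. In each of the 5 panels the median is highest in wild type and second highest in the induced pool, and in complex IV single members leave the common course.

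The 2 transgenic normal-pressure pools, SM22-rtTA and uninduced, were the closest available measure of spread. Between them the members had a median log2 ratio of -0.04 and ranged from -0.42 (Ndufb8) to 0.43 (Cox4i2). None of the 80 members was 1.5-fold apart in either direction, against 3.0% of measured genes higher and 4.51% lower in SM22-rtTA. This pair also differs in genotype and doxycycline, and its log2 ratio had an SD of 0.34 over the genes detected in every pool.

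Wild type was compared with the mean of those 2 pools. The members were higher in wild type, with a median log2 ratio of 0.94 (1.92-fold) where the median of all measured genes was 0.00. Of the 80 members, 66 were at least 1.5-fold higher and 0 lower, against 16.9% and 10.2% of all measured genes; 33 were at least 2-fold higher, against 7.69%. With values as deposited the median of all genes fell to -0.14 and the split of all calls turned to 991 higher and 1692 lower from 1449 and 876, and after quantile normalization it was 1202 and 1237. The medians of the complexes stayed above 0 under each: 0.68, 0.99, 0.998, 0.61 and 0.77 for complexes I to V as deposited, and 0.72, 0.997, 0.96, 0.63 and 0.77 after quantile normalization. At the main scaling they were 0.90, 1.22, 1.22, 0.83 and 0.99.

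Genes of other organs stood high in the same wild-type pool. Of 21 measured kidney proximal tubule markers, 17 were at least 2-fold above every other pool, with summed intensities of 11773, 11402, 95016, 8473 and 16205. Miox, Acsm2 and Slc27a2, all of proximal tubule, were at the floor in the other 4 pools and at 10416, 8496 and 7996 in wild type. The proximal tubule list includes Napsa and Aqp1, which lung also makes. Of 9 markers of the thick ascending limb and distal tubule 6 were so (summed 4248, 3180, 31673, 6582 and 4786), of 9 adrenal markers 5 (3353, 2407, 14532, 3621 and 4830) and of 7 liver markers 3 (2085, 1895, 15725, 1670 and 3106). The distal tubule list shares Pvalb with the skeletal muscle list used below. Of the 9 distal markers, 1 was at least 2-fold above every other pool in the induced pool. Brown fat markers, 4 of 9 measured, summed to 731, 634, 4483, 8043 and 684, and adipocyte markers to 5772, 5164, 16597, 10878 and 7012. The brown fat markers include Cox7a1 and Cox8b, which muscle also makes and which alone summed to 731, 634, 2427, 4861 and 684. The summed intensity of the 80 members was 168713, 163352, 313270, 233126 and 160293. The part of these tissues in the members' levels was not tested.

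**Figure D2:**
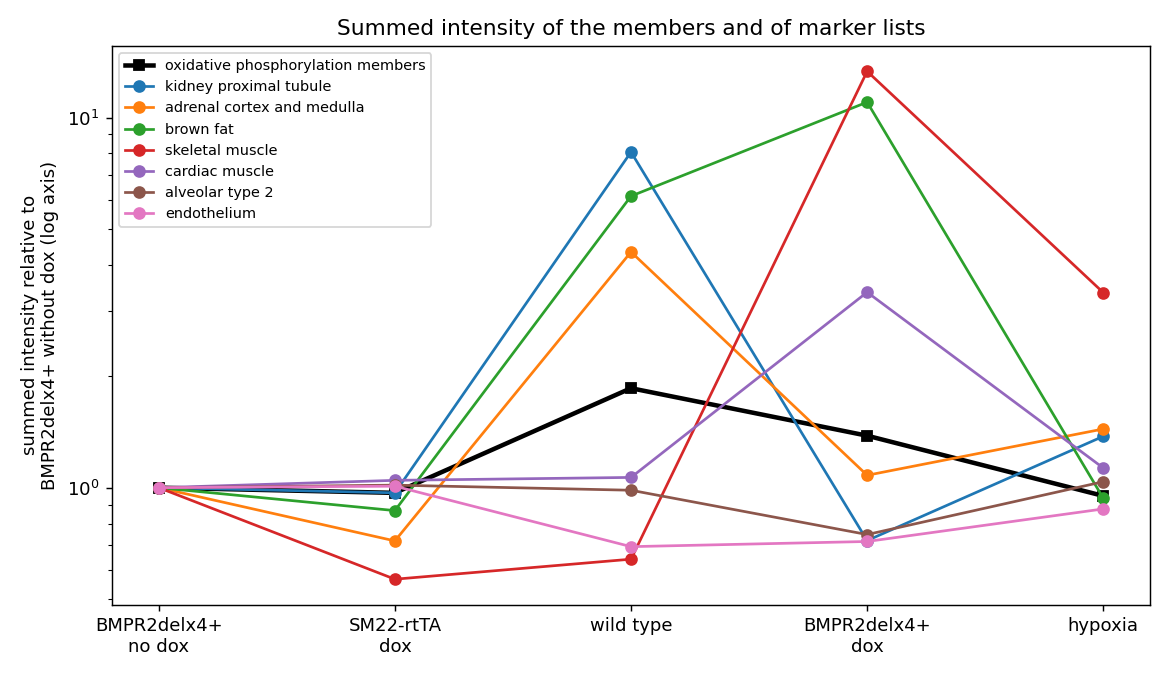
Summed intensity of the 80 measured members and of 7 marker lists in each pool, relative to the uninduced pool, on a log axis. Kidney proximal tubule and adrenal lists peak in wild type and skeletal and cardiac muscle lists in the induced pool. The brown fat list, which includes the muscle isoforms Cox7a1 and Cox8b, is high in both. The members are highest in wild type and second in the induced pool.

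The induced pool was set against the uninduced one, which shares its genotype. The members were higher in the induced pool, with a median log2 ratio of 0.49 (1.41-fold) where all measured genes had 0.00, and 77 of 80 were above 0 against 44.9% of measured genes. At least 1.5-fold higher were 28 of 80, against 5.04%, and 0 were lower, against 2.57%; at 2-fold, 2 were higher, against 1.69%. Of the 28, all were also above SM22-rtTA, and 3, Cox6a2, Ndufa5 and Ndufs5, were above wild type too, where 3.26% of measured genes passed the same rule. Another probe set of Ndufa5 had wild type above the induced pool (1552 and 1336). Against SM22-rtTA, which had doxycycline as well, the median was 0.53 with 33 members at least 1.5-fold higher (9.72% of measured genes) and 1, Cox4i2, lower (6.11%). At 2-fold these counts were 2 (2.79%) and 0 (1.44%). By complex the medians against the uninduced pool were 0.53, 0.53, 0.74, 0.25 and 0.49 for complexes I to V.

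Striated muscle genes were high in the induced pool: of 17 measured skeletal muscle markers, 15 were at least 2-fold above every other pool, with summed intensities of 5851, 3310, 3750, 78007 and 19691. Tnnc2 and Mylpf, of fast muscle, stayed at the floor in the 3 normal-pressure pools, reached 6493 and 5278 in the induced pool and were at 1799 and 1032 in hypoxia. Cardiac markers, 9 of 15 so, summed to 13507, 14137, 14396, 45570 and 15266. Alveolar type 2 markers summed to 67700, 68780, 66628, 50576 and 70255 and endothelial markers to 41993, 42385, 29096, 30045 and 36789. The former were lowest in the induced pool and the latter in wild type, with the induced pool next. Whether muscle and brown fat carry the members' excess there was not tested.

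Complex I is the largest complex, and its median in wild type was 0.90 above the transgenic pools, with 30 of 34 members at least 1.5-fold higher. The 6 core subunits measured, among them those that hold the flavin and the iron-sulfur clusters, had a median of 1.16 and the 27 accessory subunits 0.83. Ndufs1, a core subunit with iron-sulfur clusters, was at 848, 809, 2100.5, 1481 and 575, the widest span of the core. Ndufv1, which binds NADH and flavin, was at 1433, 1635, 3589, 2309 and 1704. Ndufs7, the core subunit next to the quinone site, was at 1977, 1891, 2903, 2682 and 1735. By these probe sets the core subunits had wild type first and the induced pool second and differed in how far apart the pools were, but another probe set of Ndufs7 had the induced pool first (1519, 1093, 1764, 2045 and 1040.4). In induction the core had a median of 0.66, with 4 of 6 at least 1.5-fold higher, and the accessory subunits 0.49, with 9 of 27. Against SM22-rtTA the order of the 2 medians turned, with 0.55 (3 of 6) for the core and 0.57 (12 of 27) for the accessory subunits.

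Among the accessory subunits, Ndufa10 had the highest ratio in wild type (1.51), at 895, 871, 2507, 1564 and 751. Ndufab1, the mitochondrial acyl carrier protein, was at 1090.5, 1042, 2560.5, 1939.5 and 958, a ratio of 0.83 in induction that became 0.21 when its probe sets were averaged. Ndufa9, a subunit near the quinone site, was at 914, 1038, 2436, 1612 and 1093. In these 3 the transgenic normal-pressure pools were close to each other and wild type stood well above the induced pool. Ndufa5 was at 879.8, 870.0, 1562, 1612 and 759 and had the highest ratio of complex I in induction (0.87). Ndufs5 was at 836, 853, 1339.9, 1391 and 519. Ndufb7 was at 1976, 1868, 2368, 2934 and 1614. By these probe sets all 3 had the induced pool slightly or clearly above wild type. Another probe set of Ndufa5 had wild type first (759, 712, 1552, 1336 and 534). Ndufc2, the last such member, departed most from the common course by its brightest probe set: it was at 3759, 3412, 3500.1, 4014 and 2436, with a ratio of -0.03 in wild type and 0.09 in induction. Its other probe set (2468.5, 2327, 2867, 2653 and 2401) had wild type first and the induced pool second, with 0.26 and 0.10. Ndufa7 had small ratios too, at 2249.6, 2128, 2698, 2440.1 and 2383, but 2 other probe sets gave 0.72 and 0.62 in wild type in place of 0.30.

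The other accessory subunits lay between these. In wild type their ratios ran from 0.50 (Ndufb3) to 1.32 (Ndufb6), and in induction from 0.26 (Ndufa6) to 0.79 (Ndufb5). Ndufa4, which was first counted to complex I and is now placed in complex IV, was at 2309.9, 2478, 5211, 3456 and 2651, ratios of 1.12 in wild type and 0.58 in induction. The complex I assembly factors, which help to build the complex and are not part of it, were less far apart. Ndufaf3 was at 502, 531, 568, 513 and 450.3, and Ndufaf4 at 389, 361, 514, 500.1 and 281. Ndufaf7, an arginine methyltransferase of this pathway, was above the floor in wild type (351) and hypoxia (354) alone. None of the 3 was 1.5-fold apart in wild type or in induction.

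Complex II has 4 subunits, all of them nuclear, and also serves in the citric acid cycle as succinate dehydrogenase. In wild type the 4 ratios lay within 1.21 to 1.22, the narrowest range of any complex, over the fewest members. Other probe sets gave 1.15 for Sdha and 1.36 for Sdhc, so the narrow range depends on the probe set. Sdha, the flavoprotein that oxidises succinate, was at 1753, 1876, 4202, 2548 and 1552. Sdhb, the iron-sulfur subunit, was at 2091, 2366, 5152, 3632 and 2064. The membrane anchors Sdhc and Sdhd were at 1692, 1942, 4217, 2432 and 1800.5, and at 1192, 1193, 2788, 1718 and 1415. All 4 were thus more than 2-fold higher in wild type than the mean of the transgenic pools. In induction Sdhb had a ratio of 0.80, the 1 member past 1.5-fold, and the others had 0.52 to 0.54. Other probe sets of Sdha and Sdhc gave 0.70 and 0.62, both past 1.5-fold, so this contrast depends on the probe set.

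The subunits of complex III that carry the redox centres had the widest ratios of the whole set. Uqcrfs1, the Rieske iron-sulfur protein, was at 1140.4, 1267, 4118, 2434 and 1266, a ratio of 1.78 (3.43-fold) in wild type and 1.09 (2.13-fold) in induction. Cyc1, cytochrome c1, was at 1855, 1482, 4919, 3700.5 and 1997, with ratios of 1.57 and 0.996. Among the members other than Cox6a2, these 2 had the highest ratios in induction, and they were the 2 highest of all members in wild type. The large core proteins Uqcrc1 and Uqcrc2, which lie on the matrix side and carry no redox centre, were at 2052, 2089, 4819, 3454 and 2252, and at 1262, 1094, 3054, 2102 and 1189. Among the small accessory subunits, Uqcrq was at 1245, 1172, 3332, 2189 and 1271, with a ratio of 1.46 in wild type. Uqcrb, which binds near the quinone site, was at 8966, 7532, 11131, 9089 and 6559, with ratios of 0.44 and 0.02. Its other probe set was at 1114, 1114, 2405, 1675 and 1125, with 1.11 and 0.59, so the size of the Uqcrb ratios depends on the probe set. Uqcrh, the hinge protein of cytochrome c1, was at 3031, 2627, 4046, 3634 and 2329, with 0.52 and 0.26. Uqcr10, at 2093, 1878, 3701, 2477 and 2352, had 0.90 and 0.24, and Uqcr11 had 0.93 and 0.54.

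In complex IV the common isoforms moved as 1 group by their brightest probe sets. The 8 measured ones had a median of 0.92 in wild type, all of them at least 1.5-fold higher, and of 0.34 in induction, 2 of them past that fold. Cox5a and Cox5b, matrix-side subunits, were at 2692, 3059, 6686, 4526 and 2582, and at 3039, 2713, 6408, 4579 and 3031. Cox4i1, the common isoform of subunit 4, was at 5031, 4554, 8278, 6076 and 5014. Cox6a1, the common isoform of subunit 6a, was at 4690.4, 4221, 7792, 5157 and 4296. Its second bright probe set had the induced pool lowest (3853, 3728, 7138, 3669 and 4286), with ratios of 0.91 in wild type and -0.07 in induction. Cox8a was at 3695, 3485, 7181, 4041 and 3749.7, 2.001-fold higher in wild type and with a log2 ratio of 0.13 in induction. Cox6a1 and Cox8a thus had wild-type ratios like the rest of the group and had the smallest ratios of it in induction. Cox6b1, Cox6c and Cox7a2 had wild-type ratios of 0.83 to 0.95 and induction ratios of 0.24 to 0.52. Their other probe sets gave 1.13, 1.06 and 1.02 in wild type and 0.58, 0.51 and 0.43 in induction.

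Tissue isoforms and paralogues of complex IV each had a course of their own. Cox6a2, the isoform of subunit 6a in heart and skeletal muscle, was at 642, 685, 499, 2685 and 669: it was 4.18-fold higher in the induced than in the uninduced pool and lowest in wild type. The muscle isoforms outside the member list were higher in both the induced and the wild-type pool, Cox7a1 at 342, 303, 943, 1925 and 308, and Cox8b at 389, 331, 1485, 2936 and 377. Both of these are also made in brown fat, where Ucp1 is the heat-producing uncoupler; Ucp1 reached 797 in wild type and 1600.4 in the induced pool and the floor elsewhere. Ckmt2, the mitochondrial creatine kinase of striated muscle, had the course of Cox6a2, at 477, 411, 422, 2495 and 397.

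Cox4i2, the isoform of subunit 4 known from lung, was at 434, 587, 451, 383 and 708. It was the 1 member at least 1.5-fold higher in hypoxia than in wild type (ratio 0.65), and its ratio against the mean of the transgenic pools was 0.49, under that fold. Cox8c, known from testis, was at 543, 546, 1118, 644 and 1248, high in wild type and in hypoxia, and 2.29-fold above the transgenic pools in hypoxia. Cox6b2, also known from testis, stayed near the floor, at 334, 355 and 349 in the uninduced, SM22-rtTA and hypoxic pools and at the floor in wild type and the induced pool. Cox7a2l, a supercomplex factor related to subunit 7a, was at 2786, 2528, 2877, 2914 and 2362, nearly level. Cox4i2, Cox6a2 and Cox8c have 1 value of this kind each, without a replicate.

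**Figure D3:**
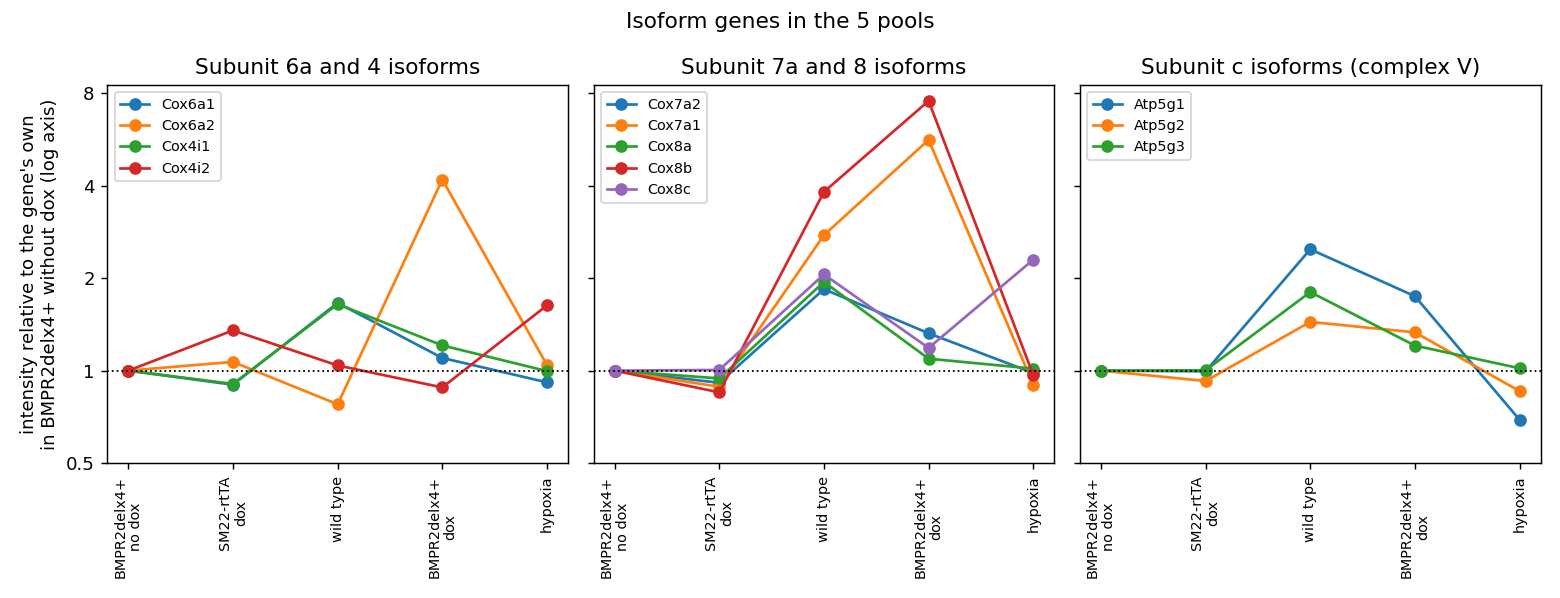
Intensity of complex IV isoform genes (left and middle) and of the 3 genes for subunit c of complex V (right) in each pool, each gene relative to its own value in the uninduced pool, on a log axis. Cox6a2 stands apart in the induced pool, Cox7a1 and Cox8b in the wild-type and induced pools, and Cox8c is highest in hypoxia.

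Complex V, ATP synthase, had 17 members, all highest in wild type and 16 of them at least 1.5-fold above the transgenic pools. In the catalytic F1 head the median was 1.03 in wild type and 0.47 in induction. Atp5b, the catalytic beta subunit, was at 3654, 4486, 9975, 5333 and 4415. Atp5a1, the alpha subunit, was at 5266, 6052, 9985, 6074 and 5585. Atp5c1, the gamma subunit of the central stalk, was at 2322, 2871, 5255, 3973 and 2300.1. Alpha and gamma had ratios of 0.21 and 0.77 against the uninduced pool, and of 0.01 and 0.47 against SM22-rtTA. A second bright probe set of Atp5a1 gave 0.31 and 0.46, so against SM22-rtTA the gap between the 2 subunits depends on the probe set. Atp5e, the epsilon subunit, had the smallest ratio of the head in wild type (0.64), at 1710.3, 1489, 2495, 2258 and 1404.

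The 9 members of the peripheral stalk and membrane part had medians of 0.99 in wild type and 0.49 in induction, with 9 and 4 of them at least 1.5-fold higher. Atp5pb, subunit b of the stalk, had the highest ratio of complex V in wild type (1.35), at 1573, 1545, 3987, 2402 and 1943. Atp5h, subunit d of the stalk, had the lowest of the 9 (0.72), at 3009.9, 2933, 4878, 3703 and 3103. Atp5o, which links stalk and head, was at 2124, 2052, 4518, 3367 and 1919. The others, Atp5j, Atp5j2, Atp5k, Atp5l, Atp5md and Atp5mpl, lay between 0.87 and 1.05 in wild type and between 0.41 and 0.65 in induction.

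Subunit c, which forms the rotating ring, is made from 3 genes whose mature protein is the same. Atp5g1 was at 939, 934, 2329.6, 1639 and 649.6, Atp5g2 at 1954, 1808, 2815, 2603 and 1676, and Atp5g3 at 4820.1, 4832, 8684, 5815 and 4907. Their ratios in wild type were 1.32, 0.58 and 0.85, and in induction 0.80, 0.41 and 0.27. Atp5g1 had the largest ratio of the 3 in wild type, in induction and in hypoxia against wild type (-1.84, -0.75 and -0.82), Atp5g2 was the 1 member of complex V short of 1.5-fold in wild type, and in hypoxia Atp5g1 was below each of the other 4 pools. Because the 3 genes give the same mature protein and differ in their courses, their start regions are shown, as RefSeq windows on GRCm38.p6 from 250 bases before to 50 bases after the start. Atp5g1 lies at chr11:96075582-96075881, Atp5g2 at chr15:102670998-102671297 and Atp5g3 at chr2:73911277-73911576, all on the minus strand. Capitals mark the palindromic motif of nuclear respiratory factor 1 (NRF1), a known regulator of respiratory chain genes, and CAAGGTCA, that of estrogen-related receptors, each on either strand.
Atp5g1: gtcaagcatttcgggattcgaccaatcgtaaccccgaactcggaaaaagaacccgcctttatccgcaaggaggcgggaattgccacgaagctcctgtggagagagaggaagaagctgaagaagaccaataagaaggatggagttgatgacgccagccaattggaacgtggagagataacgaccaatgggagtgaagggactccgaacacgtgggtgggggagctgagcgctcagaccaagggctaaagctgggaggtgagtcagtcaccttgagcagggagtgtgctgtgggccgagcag
Atp5g2: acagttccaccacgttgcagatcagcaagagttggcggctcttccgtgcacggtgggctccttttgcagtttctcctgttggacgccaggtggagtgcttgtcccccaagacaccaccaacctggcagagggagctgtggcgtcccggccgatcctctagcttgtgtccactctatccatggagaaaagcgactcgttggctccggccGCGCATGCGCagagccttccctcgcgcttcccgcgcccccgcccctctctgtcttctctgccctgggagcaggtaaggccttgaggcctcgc
Atp5g3: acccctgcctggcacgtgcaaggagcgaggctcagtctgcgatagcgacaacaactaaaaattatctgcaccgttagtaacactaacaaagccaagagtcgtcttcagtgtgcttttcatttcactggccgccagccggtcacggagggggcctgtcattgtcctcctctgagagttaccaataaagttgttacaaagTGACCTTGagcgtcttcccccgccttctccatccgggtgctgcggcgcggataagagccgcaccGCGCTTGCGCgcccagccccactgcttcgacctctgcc
The window of Atp5g1 had no match to either motif, that of Atp5g2 had 1 to the NRF1 motif, and that of Atp5g3 had 1 to each.

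The same search was made over all members with a window in that table, 68 of 83 with 73 windows of 300 bases. The NRF1 motif was in 17 of the 73 windows (23.3%), against 9.43% of 8938 windows of measured genes and 4.6% of all 32851 windows. The ETS motif CCGGAAG was in 18 (24.7%, against 16% and 8.86%), the YY1 motif AANATGGC in 16 (21.9%, against 8.16% and 6.05%), CAAGGTCA in 4 (5.48%, against 1.11% and 1.56%) and ACGTG, the core of the hypoxia-inducible factor site, in 18 (24.7%, against 24.4% and 19.6%). Both strands were searched, matches may overlap, and a match in these letters is a description and not a binding site. The median GC content was 59% in member windows and 60.3% in those of measured genes. Members with and without an NRF1 match, 15 and 50 measured genes, had median ratios of 0.85 and 0.94 in wild type and of 0.53 and 0.49 in induction. Of the windows, that of Sdha had the most NRF1 matches, 3, and that of Uqcrfs1, the member with the highest wild-type ratio, had no match to any of the 5 motifs. Both are shown for that contrast, Sdha from chr13:74350191-74350490 and Uqcrfs1 from chr13:30545267-30545566, on the minus strand, with capitals for the NRF1 motif.
Sdha: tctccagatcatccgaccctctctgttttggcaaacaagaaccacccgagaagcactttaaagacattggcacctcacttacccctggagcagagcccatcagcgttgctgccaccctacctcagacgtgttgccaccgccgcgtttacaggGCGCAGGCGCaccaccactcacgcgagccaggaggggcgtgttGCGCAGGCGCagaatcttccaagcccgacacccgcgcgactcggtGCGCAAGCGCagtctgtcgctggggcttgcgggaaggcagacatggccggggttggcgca
Uqcrfs1: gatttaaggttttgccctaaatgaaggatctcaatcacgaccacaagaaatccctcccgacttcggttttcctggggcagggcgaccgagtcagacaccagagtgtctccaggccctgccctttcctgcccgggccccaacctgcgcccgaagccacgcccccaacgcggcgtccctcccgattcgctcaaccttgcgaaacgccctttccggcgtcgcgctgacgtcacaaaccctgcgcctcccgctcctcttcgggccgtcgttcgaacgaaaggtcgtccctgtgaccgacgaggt
The ratios of these 2 genes in wild type were 1.21 and 1.78; Uqcrfs1 was picked for its ratio, so the pair is an illustration only.

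Hypoxia was compared with wild type, its control by strain and age, and with the mean of the 2 transgenic normal-pressure pools. Against wild type the members had a median of -0.995, with 75 of 80 below 0 (40.4% of measured genes); 69 were at least 1.5-fold lower and 1 higher, against 11.9% and 7.6% of measured genes. At least 2-fold lower were 38 (6.55%) and higher 0 (1.43%), and 32 were 1.5-fold lower and also below all 3 normal-pressure pools (4.82%). Against the transgenic pools the median was -0.01, with 42 below (47.8% of measured genes) and 38 above 0 (45.9%), 1 member at least 1.5-fold lower (4.28%) and 1 higher (12.2%). At 2-fold 0 were lower (0.454%). The 2 comparisons share the hypoxic pool. Other-organ markers were also lower in hypoxia than in wild type, with medians of -2.79 for proximal tubule (18 of 21 at least 1.5-fold lower), -2.99 for the distal list (7 of 9), -1.66 for adrenal (7 of 9) and -1.07 for liver (6 of 7); their part in the members' difference was not tested. Over all measured genes, the split of 1.5-fold calls was 653 higher and 1021 lower against wild type (922 and 913 after quantile normalization) and 1044 and 368 against the transgenic pools (744 and 868 as deposited). The largest differences against wild type were those of Ndufs1 (-1.87), Atp5g1 (-1.84), Ndufa10 (-1.74) and Uqcrfs1 (-1.70). Of these, Ndufs1 and Atp5g1 were also lower than the transgenic pools (-0.53 each), while Uqcrfs1 was level with them (0.07).

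By complex, the medians of hypoxia against the transgenic pools were -0.15, -0.06, 0.07, 0.02 and 0.02 for complexes I to V. Complex I had 21 of 34 members below 0, and hypoxia was the lowest of the 5 pools for 20 of the 34, where 14.9% of measured genes had hypoxia lowest. By the brightest probe sets, Ndufs5 (-0.70) was the 1 member past 1.5-fold, followed by Ndufc2 (-0.56), Ndufs1 (-0.53) and Ndufb3 (-0.41). Other probe sets of Ndufa12 (-0.89), Ndufv1 (-0.82) and Ndufv2 (-0.73) were past it too, where their brightest gave -0.33, 0.15 and 0.11. A further probe set of each gave -0.56, 0.05 and -0.19, so these ratios depend on the probe set. The other probe set of Ndufc2 gave 0.002. Some complex I subunits were above 0, led by Ndufs8 (0.25) and Ndufa9 (0.17). Other probe sets of Ndufs8 ran from -0.30 to 0.04. With values as deposited all measured genes had a median of -0.12 and the 5 complexes -0.32, -0.23, -0.10, -0.15 and -0.14; after quantile normalization these were -0.01 and then -0.13, -0.03, 0.10, -0.02 and 0.03. Complex I was the lowest of the 5 under each of the 3 scalings. Between the transgenic pools themselves the 5 medians were -0.04, 0.14, -0.16, -0.11 and -0.04. Other probe sets of the same genes had the opposite sign in 30 of 63 cases for this comparison, 13 of them with both ratios at least 0.1 from 0, against 6 of 63 for hypoxia against wild type, 2 for induction and 1 for wild type. The 6 belong to Cox7a2l, Ndufab1, Uqcrq, Ndufb9 (2473, 2498, 5352, 3910 and 2541 by its brightest probe set) and Ndufs4 (979, 1245, 1826, 1516 and 869), so the hypoxia ratios of these 5 genes depend on the probe set. The opposite probe sets of all but Cox7a2l were near the floor, at most 497 in any pool.

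The 2 raised-pressure pools were set side by side directly. The members were higher in the induced than in the hypoxic pool, with a median of 0.62, 45 of 80 at least 1.5-fold higher (10.7% of measured genes) and 2, Cox4i2 and Cox8c, lower (11.4%). At 2-fold 7 were higher (2.67%) and 0 lower (2.41%). All measured genes split into 921 higher and 980 lower, or 1292 and 693 as deposited. Complex medians were 0.69, 0.57, 0.78, 0.30 and 0.41. Cox6a2 (2.004), Ndufs5 (1.42), Ndufs1 (1.36) and Atp5g1 (1.34) led. The skeletal muscle markers had sums of 78007 and 19691 in these pools, and their part in the difference was not tested.

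**Figure D4:**
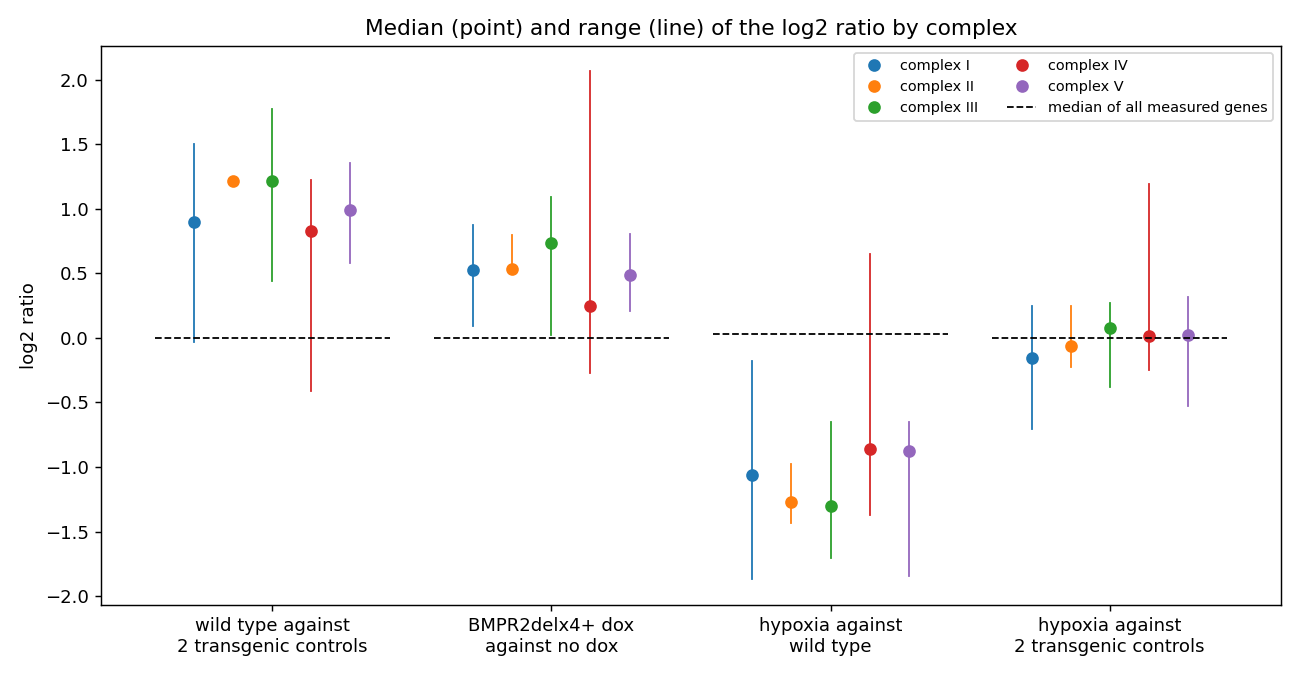
Median (point) and range (line) of the log2 ratio of measured members, by complex, in 4 comparisons, with the median of all measured genes as a dashed line. The medians of all 5 complexes lie above the dashed line for wild type and for induction and below it for hypoxia against wild type. They lie near it for hypoxia against the transgenic pools.

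Other mitochondrial genes were examined as lists. Citric acid cycle genes, which feed electrons to the chain, had a median of 1.05 in wild type with 15 of 16 at least 1.5-fold higher, and of 0.79 in induction with 13 of 16. Suclg2, of succinyl-CoA ligase, was at 387, 442, 1871, 576 and 353, and Pdha1, of pyruvate dehydrogenase, at 2106, 2674, 5067, 4174 and 2558. Cytochrome c (Cycs), the carrier between complexes III and IV, was at 1499, 1119.5, 5532, 2883 and 1924, and its list of 8 with the nucleotide carriers and porins had medians of 0.70 and 0.60. Slc25a4, the nucleotide carrier of muscle and heart, was highest in the induced pool (6451), and Slc25a5, its counterpart in other cells, in wild type (8077).

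Genes that build mitochondria had smaller ratios. The 66 measured genes of mitochondrial translation had a median of 0.50 in wild type, with 27 at least 1.5-fold higher and 0 lower, and of 0.18 in induction, with 3 higher and 0 lower. Of all measured genes 16.9% were that much higher in wild type and 5.04% in induction, so the 3 of 66 in induction are near the background. Assembly factors of complexes II to V, 21 measured, had 0.41 with 6 higher and 0.17 with 2 higher, led in wild type by Coa6 (392, 333, 1022, 415 and 339), a copper factor of complex IV. The 7 measured other complex I assembly factors had 0.26 and 0.08, with 2 and 0 higher. Regulators of mitochondrial biogenesis, 13 measured of 17, had 0.11 and 0.06. In wild type 1 of these was higher and 2 lower, beside 16.9% and 10.2% of all measured genes: the mitochondrial RNA polymerase Polrmt (490.3, 450.0, 764, 519.7 and 714) was higher and Yy1 (1203, 1423, 616, 1240.0 and 1315) and the mitochondrial DNA polymerase Polg (729, 669.6, 443, 664 and 527) were lower. In induction 0 of the 13 were 1.5-fold apart. Against wild type, hypoxia gave medians of -1.18 for the citric acid cycle, with 16 of 16 at least 1.5-fold lower, and of -0.54 for mitochondrial translation, with 31 of 66 lower.

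**Figure D5:**
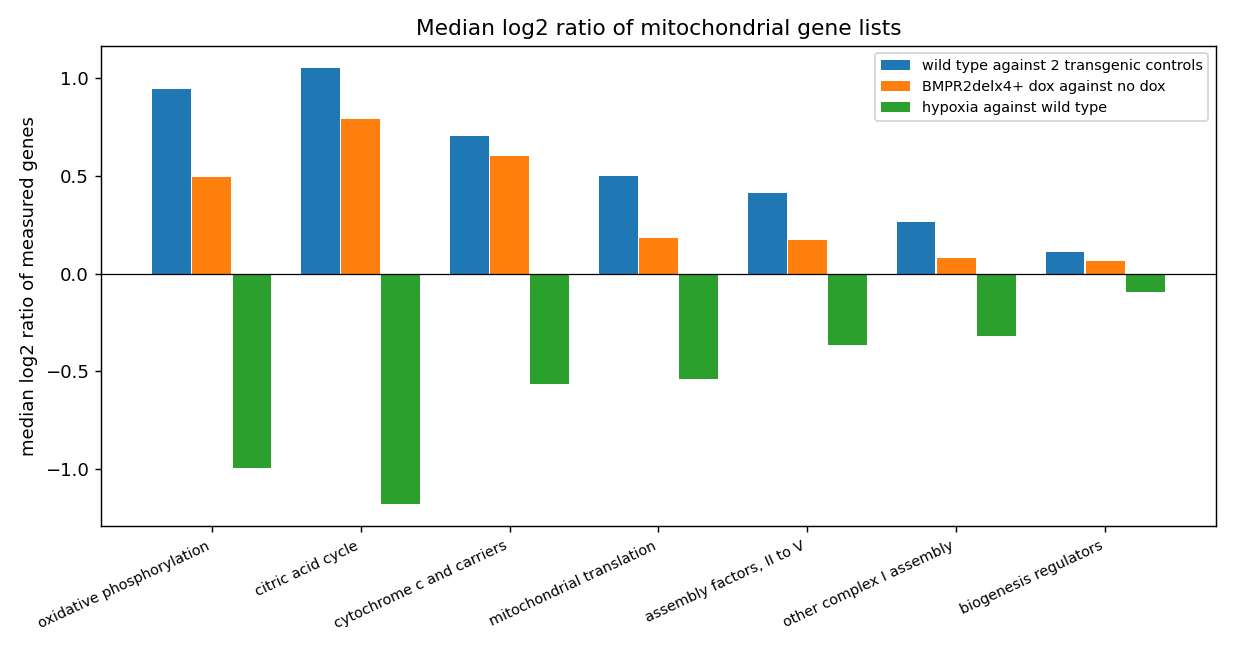
Median log2 ratio of the measured genes of the oxidative phosphorylation members and of 6 other mitochondrial lists in 3 comparisons. The citric acid cycle has longer bars than the members in all 3 comparisons, and translation, assembly and regulator lists have shorter ones.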

How the data were processed

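The authors deposited linear intensities, 1 per probe set and array, for 22626 probe sets. Neither the summary method nor the scaling is named in samples' labels. No intensity was under 50, and 9.85% to 12.5% of each array sat at exactly that limit; column medians were 266 to 284. Log2 values were shifted to a common median, taken from 9046 probe sets that lay in the upper part of each array (beyond its 50th percentile) (-0.07, -0.11, 0.13, -0.04 and 0.08 in the order of pools used above), and values under the 50th percentile of all values were raised to it. Gene names came from GEO's platform annotation, and a RefSeq table on GRCm38.p6 supplied current symbols through gene IDs; 20380 had 1 gene (20351 matched by ID), 691 several and 1555 none. Probe sets of several genes were left out, 8 of which name a member (among them Ndufb4, Ndufa11 and Ndufs6). The 83 members had 155 probe sets, and 45 had more than 1. Of 12393 genes 8590 were measured. A gene counted as apart at 1.5-fold, and ratios that involve a value at the floor are bounds. The members and lists were chosen with earlier results of these data known. Any member could be named; values in all 5 pools were to be given for the 2 highest and 2 lowest of each complex in induction and in wild type, all Sdh genes, isoforms and paralogues, members highest in an unusual pool and members whose probe sets had opposite signs, here taken from hypoxia against wild type, and other members' values are examples. Of each list the text names genes among the 3 with the largest ratio, besides Cox7a1, Cox8b and Cycs, and Napsa, Aqp1 and Pvalb without values. Calculations used Python 3.11.15, numpy 2.4.6 and pandas 2.3.3. The calls were tested on simulated data with planted changes of 2-fold or more in genes above the floor in every pool. Changes near 1.5-fold were not simulated.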

Additional observations from a re-analysis of the deposited data

Results flagged for a closer look

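Raised pressure against the matched control gave opposite signs in the induced and the hypoxic pools in every complex; with 1 pool a condition the difference was not tested. The median log2 ratio of induction minus that of hypoxia was 1.59 in complex I (0.53 and -1.06), 1.81 in complex II (0.53 and -1.27), 2.04 in complex III (0.74 and -1.30), 1.10 in complex IV (0.25 and -0.86) and 1.36 in complex V (0.49 and -0.88). With the transgenic pools as the control of hypoxia, the medians of the 5 complexes were between -0.15 and 0.07. The hypoxia values rest on the wild-type pool, where other-organ markers were higher as well: against wild type the median in hypoxia was -2.79 for proximal tubule markers (18 of 21 at least 1.5-fold lower) and -1.66 for adrenal markers. Skeletal muscle markers had a median of 3.71 in induction, with 17 of 17 higher. The part of either in the members' values was not tested.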

How the results depend on the processing

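No paired analysis was possible because each condition has 1 array, and for the same reason no replicate could be left out. Single genes were followed for members picked by rank in their complex, isoform status or an unusual highest pool. Among their ratios and the medians over all members, no value past 1.5-fold changed sign under the alternatives run. Over them the median of all measured members ran from 0.47 to 0.52 in induction, from 0.72 to 0.95 in wild type, from -1.04 to -0.78 in hypoxia against wild type and from -0.18 to 0.01 in hypoxia against the transgenic pools; values as deposited and quantile normalization gave the lower wild-type medians. At 2-fold in place of 1.5-fold, the members higher were 2 in induction, 2 against SM22-rtTA, 33 in wild type, 7 in induced against hypoxia and 0 in hypoxia against wild type, and those lower were 38 in hypoxia against wild type and 0 in induced against SM22-rtTA, in induced against hypoxia and in hypoxia against the transgenic pools. When a member also had to lie outside the 3 normal-pressure pools, 3 were higher in induction and 32 lower in hypoxia. With the floor at the 70th percentile, 0 were lower against SM22-rtTA, 0 higher in hypoxia against wild type and 1 lower in induced against hypoxia; with a pseudocount of 100 in place of the floor, the first 2 were 0 as well. As deposited, 4 were lower in hypoxia against the transgenic pools and 1 lower in wild type. With the mean of probe sets 2 were lower in hypoxia against the transgenic pools. The cause was not tested. Of the ratios of those picked members, 24 moved by more than the single-gene SD of 0.34 between the transgenic pools and 1698 did not. Most of the moves came with the mean of probe sets, such as that of Ndufab1. The alternatives without the isoforms, without the wild-type or induced pool and with the transgenic range alone were chosen after seeing the data.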
